A study of Mus musculus with 12 samples.

Results

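Chromatin accessibility was examined around 10 mouse genes, Nr5a2, Nr1h3, Nr1h4, Nr0b2, Esrra, Esrrg, Rora, Ppara, Ppargc1a and Rxra. Of these, 9 encode nuclear receptors and 1, Ppargc1a, encodes the coactivator PGC-1α, which is not a receptor. Prox1 is known as a corepressor of several of these proteins, but no contact between proteins was measured here. The members were all ATAC-seq peaks that overlapped a gene body, or the 25 kb on either side of it, in the GENCODE M21 annotation of GRCm38, which gave 238 of the 176680 peaks of the deposited table, with none shared between genes. ATAC-seq reads out open DNA through the insertions of the transposase Tn5. The cells were primary embryonic fibroblasts (MEFs) of wild-type C57BL/6N mice, taken from E13.5 embryos. Lentivirus had carried the doxycycline-dependent activator rtTA into them, together with a cassette of hepatocyte-inducing transcription factors (4in1) and either GFP (group 4in1_GFP_OE) or FLAG-tagged mouse Prox1 (group 4in1_Prox1_OE). Both groups received 2 µg/ml doxycycline and were collected on day 2. Each of the 3 libraries per group started from 50000 cells. The series holds 2 more groups without 4in1 (MEF and Prox1_OE), for which no peak values were analysed here. Virus was delivered to whole cultures, so each value averages over cells whatever transgenes they had taken up, and fewer cells with an open site cannot be told apart from a less open site in each cell.

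Nuclear receptors are transcription factors whose zinc fingers recognise short hexamer half-sites in DNA, singly or as pairs, and whose ligand-binding domain recruits coactivators or corepressors. In hepatocytes they are best known for the control of bile acid, cholesterol, fatty acid and energy metabolism. RXRα, encoded by Rxra, is the shared heterodimer partner of the LXR, FXR and PPAR receptors, while LRH-1 (Nr5a2), the ERRs and RORα can bind DNA as monomers.

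The table gives a log2 mean of normalized reads for each peak in each group, with no value per library. No spread between replicates was therefore attached to any value and no test was run, and the depth per library is unknown. The authors' own fold change, p-value and FDR for each peak exist but were not used. All differences below are descriptions of a pair of group means, given as log2 4in1_Prox1_OE minus log2 4in1_GFP_OE. A peak was counted as lower or higher where that difference was at least 1, a 2-fold change of the mean reads. Over all peaks the median difference was -0.42 and the summed reads with Prox1 were 0.751 of those with GFP, so that a value near 0 lay above the middle of all peaks. The share of all peaks counted as lower was 24.4% and as higher 8.33%. Among the 18030 peaks within 1 kb of the start site of a protein-coding transcript (promoter peaks), the shares were 5.3% and 1.95%. The fibroblast label was looked at through marker genes. All 10 fibroblast markers examined, among them Col1a1, Pdgfra and Twist1, had a promoter peak, as against 2 of 10 hepatocyte markers, which were Apob and Trf. Promoter peaks were also present at 4 of 4 endothelial, 3 of 4 leukocyte and 5 of 5 epithelial marker genes. Their differences were mixed in sign and size. The endothelial promoters ran from -1.59 (Pecam1) to -0.03 (Kdr), with a median of -1.06, and the leukocyte ones from -1.71 (Csf1r) to 0.20 (Spi1), with a median of -0.51. The epithelial promoters ran from -0.95 (Krt19) to 1.00 (Epcam), with a median of 0.13. The median over the fibroblast promoters was -0.33, and the hepatocyte promoters had -0.23 (Apob) and -0.63 (Trf). Over the gene bodies and 25 kb on either side, 36.7% of the 109 fibroblast marker peaks were lower and 3.67% higher, with a median of -0.73 and 89% of the differences below 0. Of the 58 hepatocyte marker peaks, 17.2% were lower and 12.1% higher, with a median of -0.23. The endothelial, leukocyte and epithelial windows had medians of -0.49, -0.61 and -0.53, with 28.1%, 25.5% and 24.5% of peaks lower and 7.02%, 7.84% and 3.77% higher. Whether a change in the mixture of cells contributed to the values at the receptor genes was not tested.

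Around the 10 genes, 55 of 238 peaks (23.1%) were lower with Prox1 and 32 (13.4%) were higher. The share of lower peaks was close to that of all peaks, and the median difference was -0.43, next to -0.42 overall. The share of higher peaks was above that of all peaks, and 15 of the 32 lay at Esrrg. Without Esrrg, 17 of 177 peaks (9.6%) were higher. The higher peaks were mostly weak ones, since 28 of the 32 had a mean level below the median of all peaks, which was 104.8 normalized reads. This was also so for 89.4% of all higher peaks in the genome, beside 87.5% here. Their median went from 28.9 reads with GFP to 82.4 with Prox1, whereas the median of the lower peaks went from 152 to 64.0 reads. Among peaks below the median level, 23.9% of those at the 10 genes were higher, beside 14.9% of all peaks below that level. At or above the median level the shares were 3.31% (4 of 121 peaks) and 1.77%. Below that level, Esrrg held 14 of the 28 higher peaks and 40 of the 117 peaks at the 10 genes. After the weakest 25% of all peaks were set aside, 4.65% of the remaining peaks at the 10 genes were higher, beside 4.14% of all remaining peaks.

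**Figure D1:**
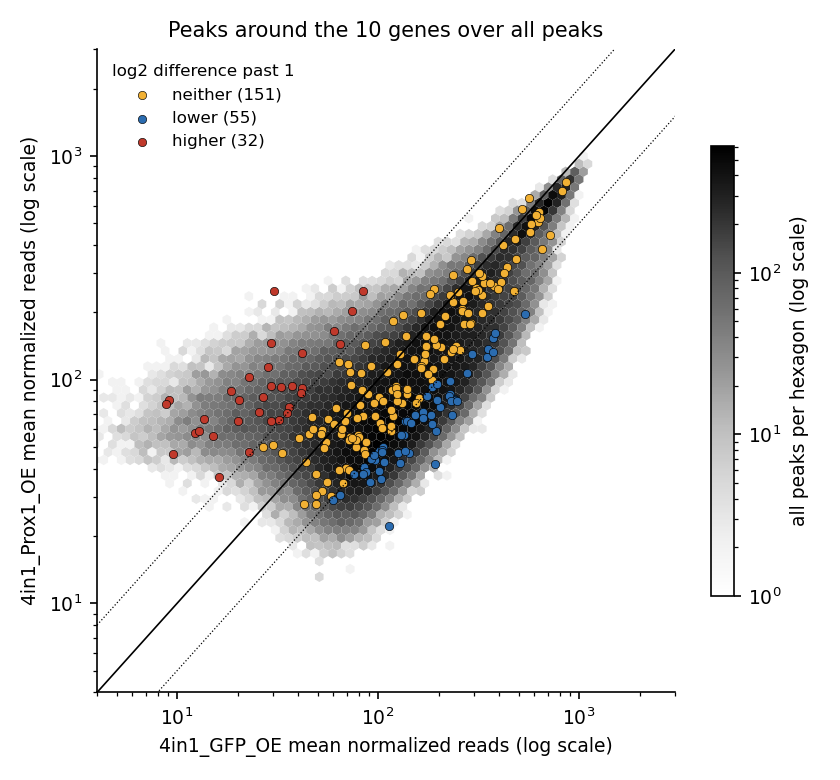
Mean normalized reads of each peak in 4in1_GFP_OE (x axis, log scale) and 4in1_Prox1_OE (y axis, log scale), with all 176680 peaks as grey hexagons and the 238 peaks around the 10 genes as points. The solid line marks equal means and the dotted lines a log2 difference of 1. The 32 higher peaks (red) sit at low GFP values, while the 55 lower peaks (blue) start from higher ones.

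The sequences of 6 higher and 5 lower peaks are shown because the contrasts described below turn on them. They were picked with their values known. For Esrrg (higher peak), Rora, Ppargc1a, Nr1h3, Nr1h4 and Rxra they are the peaks of highest or lowest difference at or above the median level. For Nr5a2, Ppara and the lower Esrrg peak they are those of highest or lowest difference at any level. Each is the whole 201-base peak, read from GRCm38.p6 on the plus strand. Capitals mark matches to 8 motifs, looked for on both strands: the nuclear receptor half-site AGGTCA, the AP-1 site TGACTCA, the forkhead site TGTTTAC, the HNF4 site CAAAGTCCA, the GATA site AGATAA, the TEAD site GGAATGT, and the Prox1 and CTCF consensus sequences with at most 1 mismatch. The higher peaks were these.
Nr5a2 chr1:136859563-136859763: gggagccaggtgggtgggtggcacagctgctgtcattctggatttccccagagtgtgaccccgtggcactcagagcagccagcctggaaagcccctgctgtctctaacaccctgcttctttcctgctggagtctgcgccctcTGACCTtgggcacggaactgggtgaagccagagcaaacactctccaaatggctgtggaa
Nr5a2 chr1:136926193-136926393: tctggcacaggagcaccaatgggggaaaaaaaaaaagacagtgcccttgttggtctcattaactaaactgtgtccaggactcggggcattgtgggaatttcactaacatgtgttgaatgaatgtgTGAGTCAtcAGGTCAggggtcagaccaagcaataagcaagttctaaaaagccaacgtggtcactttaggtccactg
Ppara chr15:85786048-85786248: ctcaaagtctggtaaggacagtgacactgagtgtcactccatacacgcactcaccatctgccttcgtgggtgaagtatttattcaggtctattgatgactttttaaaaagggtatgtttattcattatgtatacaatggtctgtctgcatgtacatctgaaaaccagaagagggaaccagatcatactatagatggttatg
Esrrg chr1:187971281-187971481: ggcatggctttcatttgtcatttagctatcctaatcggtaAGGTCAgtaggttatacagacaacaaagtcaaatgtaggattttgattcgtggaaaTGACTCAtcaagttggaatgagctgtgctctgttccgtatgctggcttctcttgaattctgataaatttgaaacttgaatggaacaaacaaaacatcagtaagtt
Rora chr9:68923447-68923647: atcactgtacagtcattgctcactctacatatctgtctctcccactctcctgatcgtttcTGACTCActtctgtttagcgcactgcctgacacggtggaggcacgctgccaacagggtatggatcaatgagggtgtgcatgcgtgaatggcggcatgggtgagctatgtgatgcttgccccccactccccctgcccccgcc
Ppargc1a chr5:51567735-51567935: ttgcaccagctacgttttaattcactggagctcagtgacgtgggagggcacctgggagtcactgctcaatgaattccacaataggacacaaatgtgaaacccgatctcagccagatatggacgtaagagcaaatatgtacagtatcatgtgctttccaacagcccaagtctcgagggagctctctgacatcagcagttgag

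The lower peaks were these.
Nr1h3 chr2:91187569-91187769: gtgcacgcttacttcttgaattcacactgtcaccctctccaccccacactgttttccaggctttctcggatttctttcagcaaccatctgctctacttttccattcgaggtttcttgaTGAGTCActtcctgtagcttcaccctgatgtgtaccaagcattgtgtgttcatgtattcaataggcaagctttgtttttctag
Nr1h4 chr10:89445771-89445971: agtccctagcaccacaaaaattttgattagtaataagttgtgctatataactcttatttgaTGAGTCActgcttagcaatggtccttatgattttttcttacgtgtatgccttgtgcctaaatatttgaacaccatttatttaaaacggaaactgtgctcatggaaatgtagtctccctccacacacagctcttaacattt
Rora chr9:69128431-69128631: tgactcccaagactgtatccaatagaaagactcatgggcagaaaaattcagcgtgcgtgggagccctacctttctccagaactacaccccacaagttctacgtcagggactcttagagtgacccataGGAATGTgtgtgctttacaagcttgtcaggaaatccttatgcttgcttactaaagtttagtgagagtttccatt
Rxra chr2:27653611-27653811: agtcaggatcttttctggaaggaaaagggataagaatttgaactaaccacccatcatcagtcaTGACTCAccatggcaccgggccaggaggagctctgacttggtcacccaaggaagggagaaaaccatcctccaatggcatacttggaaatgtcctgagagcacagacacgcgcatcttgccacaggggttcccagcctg
Esrrg chr1:187641759-187641959: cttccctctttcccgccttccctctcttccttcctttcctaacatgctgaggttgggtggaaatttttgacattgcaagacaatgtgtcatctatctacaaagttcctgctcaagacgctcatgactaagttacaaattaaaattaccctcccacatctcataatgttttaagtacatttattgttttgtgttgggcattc

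Because the printed peaks are a selection, shares of motifs are given over all 238 peaks. The AP-1 site, bound by Fos and Jun family proteins, was found in 18 of the 55 lower peaks (32.7%) and in 5 of the 32 higher ones (15.6%), beside 18.1% of all peaks at the 10 genes. Across the genome, AP-1 sites were in 38.5% of all lower, 14.6% of all higher and 23.0% of all peaks. TEAD sites were in 16.4% of the lower and 9.38% of the higher peaks at the 10 genes (11% and 7.1% of all lower and higher peaks). The half-site AGGTCA was in 33 of the 238 peaks (13.9%, beside 13.7% of all peaks), in 7 of the 55 lower (12.7%) and in 6 of the 32 higher ones (18.8%), beside 14.7% of all lower and 16% of all higher peaks. Its extended form TCAAGGTCA, which contains AGGTCA and is the type of site that LRH-1 and the ERRs prefer, was in 0 of the 238 peaks and in 0.3% of all peaks. A direct repeat of AGGTCA with a spacing of 1 base (DR1, up to 2 mismatches in all), the classical site of PPAR with RXR, was in 4 of the 32 higher and 0 of the 55 lower peaks, beside 4.03% of all higher and 2.92% of all lower peaks. DR1 was in 3.36% of the 238 peaks, beside 2.94% of all peaks. The repeat with a spacing of 4 bases (DR4) was in 2 higher and 0 lower peaks (3.54% and 2.12% of all higher and lower peaks). The inverted repeat with a spacing of 1 base (IR1) was in 1 and 0 (1.22% and 0.963%). The higher peak with IR1 was the Ppargc1a peak printed above. CTCF motifs were in 16 of the 238 peaks (6.72%, beside 10.5% of all peaks). Of the 16, 2 were lower and 0 higher, and across the genome 5.51% of peaks with a CTCF motif were lower and 3.89% higher. The Prox1 motif was in 1 of the 238 peaks, an intronic Rora peak that was lower (184 reads with GFP, 69.5 with Prox1), beside 0.305% of all peaks. The median GC content was 46.3% in the lower and 50.0% in the higher peaks at the 10 genes, and 45.8% and 48.8% in all lower and all higher peaks. A motif match is a description of the letters in a window and does not show binding.

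Promoter peaks differed less between the groups than the peaks away from them. Of the 17 peaks within 1 kb of a start site of the 10 genes themselves, 1 was lower and 1 higher, and the median difference was -0.26. A further 12 peaks lay at start sites of neighbouring genes, with 0 lower, 0 higher and a median of -0.19. Among them was a peak at the start of Acp2 that also lay at the annotated 5′ end of Nr1h3. The remaining 209 peaks held 54 of the 55 lower and 31 of the 32 higher ones, with a median of -0.50, beside -0.49 for all peaks away from promoters. Of all lower and all higher peaks in the genome, 97.8% and 97.6% lay away from promoters as well. There, 25.8% of the peaks at the 10 genes were lower and 14.8% higher, beside 26.6% and 9.06% of all peaks. Esrrg held 15 of those 31 higher peaks. Most of the 209 peaks were intronic. In all, 166 lay in introns (42 lower, 25 higher) and 38 between genes (11 lower, 5 higher).

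**Figure D2:**
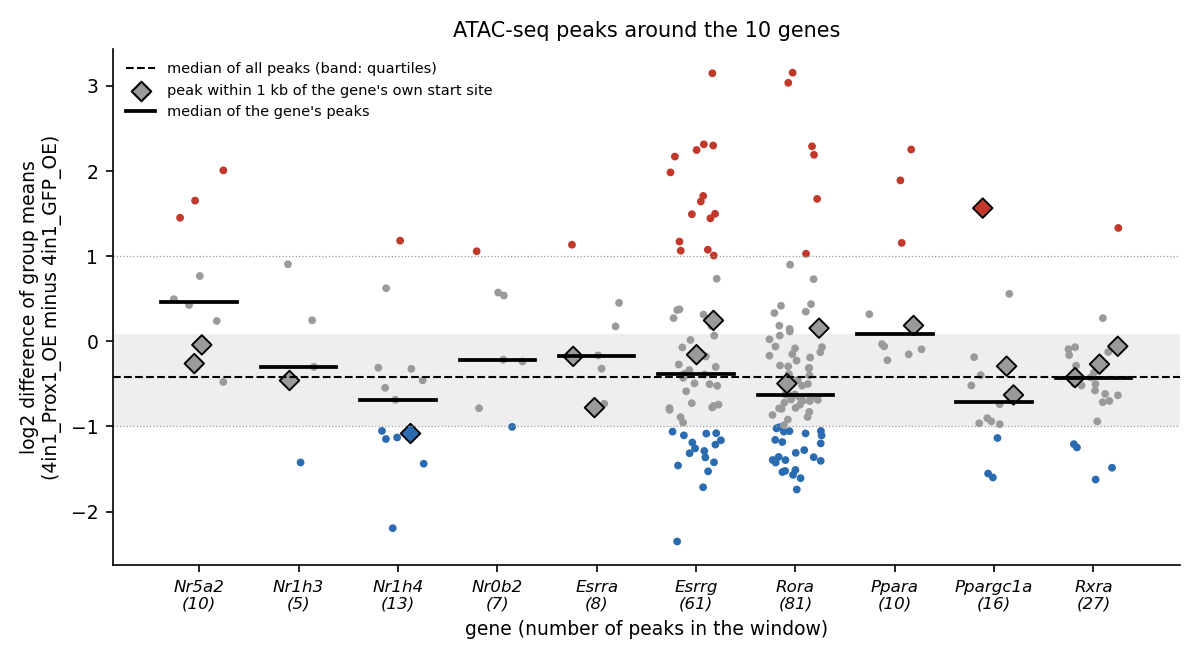
Log2 difference of the group means (y axis, 4in1_Prox1_OE minus 4in1_GFP_OE) for each peak around each gene (x axis, number of peaks in brackets). Diamonds are peaks at the gene's own start sites, bars are medians per gene, the dashed line and band are the median and quartiles of all peaks, and dotted lines mark a difference of 1. Blue peaks were lower and red ones higher, and only 1 diamond is blue (Nr1h4) and 1 red (Ppargc1a).

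Nr5a2 encodes LRH-1, an orphan receptor that drives genes of bile acid synthesis such as Cyp7a1. The gene (ENSMUSG00000026398.14, chr1:136842571-136960448, minus strand) had 10 peaks, of which 3 were higher and 0 lower, and its median difference of 0.46 was the highest of the 10 genes. All 3 higher peaks were intronic. The peak at chr1:136859563-136859763, which holds a half-site and a DR1 match, had 28.5 reads with GFP and 114 with Prox1 (difference 2.01). The peak at chr1:136926193-136926393, with a half-site, an AP-1 site and a DR1 match, went from 42 to 132 reads (1.65), and that at chr1:136889413-136889613 from 60.3 to 165 reads (1.45). In this order they lay 100785, 34155 and 70935 bases from the 5′ end of the gene. The promoter peak with most reads, in the untranslated region of an Nr5a2 transcript, had 308 reads with GFP and 257 with Prox1 (-0.26), and the second promoter peak 111 and 108 reads (-0.04). The lowest difference was -0.48, at an intronic peak with 169 and 121 reads. The higher peaks of Nr5a2 thus lay inside the gene and not at its promoters. Most of its peaks did so, since 9 of the 10 were in the gene body and only 2 at its promoters.

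Nr0b2 encodes SHP, a receptor without a DNA-binding domain that represses LRH-1 and is itself induced by the bile acid receptor FXR. It was the only one of the 10 genes with no promoter peak and no peak in its body (ENSMUSG00000037583.2, chr4:133553376-133556536). Its 7 flanking peaks held 1 lower and 1 higher peak. The lower one, 16980 bases beyond the start, had 185 reads with GFP and 92.3 with Prox1 (-1.01), just past the threshold. The higher one, 9858 bases beyond the start, had 22.8 and 47.5 reads (1.06). The strongest peaks of the window belonged to the promoters of Nudc (-0.24) and Gpatch3 (-0.22).

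Nr1h4 encodes FXR, the receptor for bile acids. It had the largest share of lower peaks among the 10 genes, 6 of 13, with 1 higher, and its median was -0.69 (ENSMUSG00000047638.15, chr10:89454234-89533585, minus strand). It was also the one gene whose most accessible promoter peak was lower, with 137 reads in the GFP group and 65.1 in the Prox1 group (-1.07). A stronger intronic peak 6315 bases inside the gene, which holds AP-1 and TEAD sites, had 535 and 198 reads (-1.44). The intergenic peak at chr10:89445771-89445971, with 1 AP-1 site, had the lowest difference of all peaks at or above the median level at the 10 genes, with 192 reads in the GFP and 42 in the Prox1 group (-2.20), which placed it at the 0.0838th percentile of all peaks. Not every Nr1h4 peak was lower: an intronic peak at chr10:89465178-89465378 had 119 and 184 reads (0.62).

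Nr1h3 encodes LXRα, the oxysterol receptor of cholesterol export and lipogenesis. It had 5 peaks, 1 of them lower and 0 higher (ENSMUSG00000002108.10, chr2:91184061-91202834, minus strand). The lower peak, printed above with its AP-1 site, is intronic and had 202 reads with GFP and 75.4 with Prox1 (-1.42). The promoter peak, 8090 bases into the gene, had 328 and 240 reads (-0.46). The peak with most reads in the window had 627 and 509 reads (-0.30). It lay at the start of the neighbour Acp2 and also at the annotated 5′ end of Nr1h3, 3 bases from its centre. It was not counted as an Nr1h3 promoter peak, because the nearest protein-coding start of Nr1h3 was 7580 bases away. The highest difference at or above the median level was 0.25, at the promoter of the neighbour Madd (400 and 475 reads).

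Esrra and Esrrg encode the estrogen-related receptors ERRα and ERRγ, orphan receptors of mitochondrial and oxidative genes that work with PGC-1α. The pair differed in size and pattern. Esrra is short (10.8 kb, ENSMUSG00000024955.14, chr19:6910977-6921813, minus strand), and 0 of its 8 peaks were lower and 1 higher. Its main promoter peak was the strongest of any of the 10 genes, with 864 reads with GFP and 764 with Prox1 (-0.18), and a second peak at an internal start site had 243 and 142 reads (-0.78). The higher peak lay downstream of the gene and was weak, with 41.8 and 91.8 reads (1.13). At or above the median level the highest difference was 0.45, at an intergenic peak with 108 and 148 reads.

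Esrrg spans 606 kb (ENSMUSG00000026610.13, chr1:187608791-188214885, plus strand) and had 61 peaks, with 16 lower and 15 higher. Lower and higher peaks were thus about equal in number. All 15 higher peaks lay in introns of the gene body, which held 54 of the 61 peaks. Of the 15, 14 were below the median level, as were 40 of the 61. The largest difference, 3.15, was at an intronic peak with 9.13 reads with GFP and 81.0 with Prox1. The one stronger peak that was higher, at chr1:187971281-187971481 with a half-site and an AP-1 site, had 74.6 and 203 reads (1.44). Other weak intronic peaks had large differences as well, such as 29.4 and 146 reads (2.31), 12.2 and 58.0 reads (2.25) and 22.8 and 102 reads (2.17). These peaks all started from fewer than 30 reads in the GFP group. The lowest difference at any of the 10 genes was -2.35, at chr1:187641759-187641959, from 114 to 22.2 reads. At or above the median level, the lowest Esrrg peak lay downstream of the gene, at chr1:188238745-188238945, with 194 reads with GFP and 59.0 with Prox1 (-1.71). The lower peaks included some of the strongest in the gene's window, with 374 and 153 reads (-1.29), 347 and 126 reads (-1.46) and 292 and 130 reads (-1.16). Lower and higher peaks were mixed along the gene but did not strictly alternate. There were 3 neighbouring higher peaks within 9.88 kb and 4 neighbouring lower peaks within 81.2 kb across its 3′ end. From chr1:188148264 to the end of the window, every peak past the threshold was lower. The upstream promoter peak had 215 reads with GFP and 193 with Prox1 (-0.16), and the promoter peak of an internal start site, 388969 bases downstream, had 290 and 343 reads (0.25). A promoter window that RefSeq gives for Esrrg also overlaps the intronic peak at chr1:187651874-187652074 by 84 bases. That peak, 42845 bases from the nearest start used here, had 330 and 291 reads (-0.18).

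Ppargc1a encodes PGC-1α, the coactivator of ERRα, PPARα and other receptors in fasting and mitochondrial biogenesis. It showed the sharpest contrast between its own promoters. The gene (ENSMUSG00000029167.13, chr5:51454250-51567726, minus strand) had 16 peaks, 3 lower and 1 higher, with a median of -0.72, the lowest of the 10 genes. The higher peak lay 9 bases upstream of the most upstream annotated start, inside the promoter window that RefSeq gives for the gene. It had 84.3 reads with GFP and 249 with Prox1 (1.56), at the 99.8th percentile of the peaks in its decile of mean level. Promoter peaks at the downstream start, 14771 and 13869 bases into the gene, had 395 and 255 reads (-0.63) and 174 and 142 reads (-0.29). The lower peaks lay within or beyond the gene body, and the strongest of them, in an exon of the noncoding gene Gm43605, went from 186 to 63.4 reads (-1.55). Start sites were taken from all annotated protein-coding transcripts. The upstream start is absent from the smaller basic set of GENCODE, under which the higher peak is no promoter peak. The second Esrra promoter peak (-0.78) likewise lay 1118 bases from the nearest basic start, and so would not count.

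**Figure D3:**
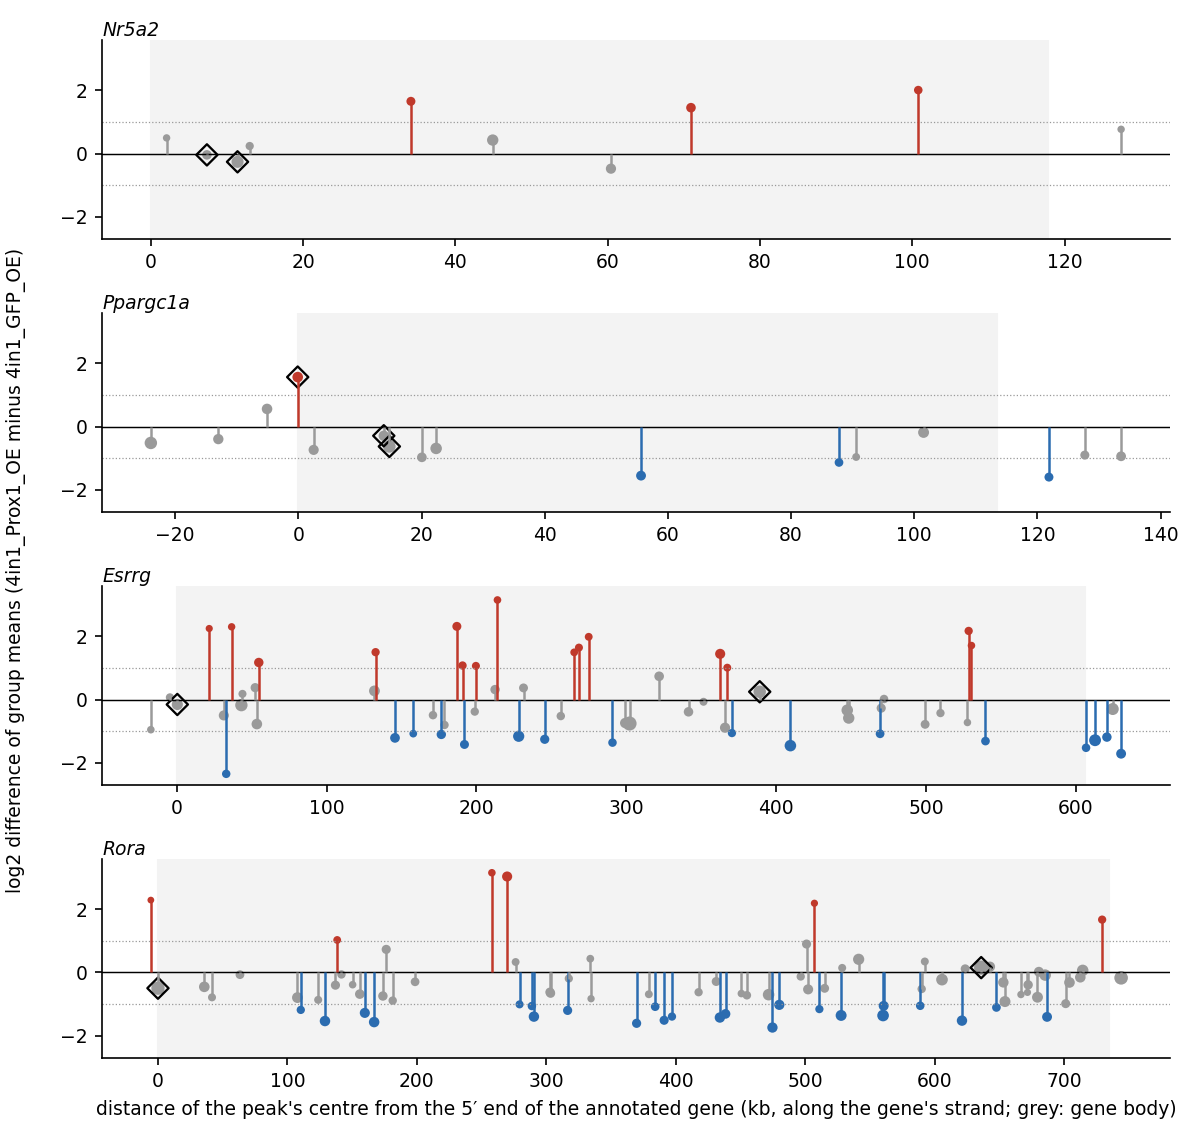
Log2 difference of the group means (y axis) of each peak by its distance from the 5′ end of the gene (x axis, kb along the gene's strand) for Nr5a2, Ppargc1a, Esrrg and Rora. Grey shading is the gene body, point size follows the mean reads, diamonds mark peaks at the gene's own start sites, and blue and red mark lower and higher peaks. The red diamond is the upstream Ppargc1a start (1.56), and Esrrg mixes 15 red and 16 blue peaks while Rora has 24 blue and 6 red.

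Rora encodes RORα, a monomeric receptor of circadian and lipid genes that recognises a half-site with an AT-rich extension. It is the longest of the 10 genes (734 kb, ENSMUSG00000032238.17, chr9:68653786-69388246, plus strand) and had 81 peaks, with 24 lower and 6 higher and a median of -0.63. All 24 lower peaks were in the gene body, as were 79 of all 81 peaks. There were 3 sets of 3 neighbouring lower peaks, within 11.3 kb, 13.2 kb and 28.9 kb. How often such runs occur among all peaks was not counted, for Rora or for the other genes. AP-1 sites were in 6 and TEAD sites in 5 of the 24, beside 16 and 12 of all 81 peaks. Of all lower peaks in the genome, 38.5% held AP-1 and 11% TEAD sites. The strongest of the 24 had 352 reads with GFP and 137 with Prox1 (-1.36), followed by peaks with 276 and 108 reads (-1.36) and with 241 and 81.1 reads (-1.57). The lowest difference was at chr9:69128431-69128631, with a TEAD site, from 232 to 69.6 reads (-1.74). Against this, the intronic peak at chr9:68923447-68923647 had 30.4 reads with GFP and 249 with Prox1, a difference of 3.04 or 8.2-fold. It was the highest of the stronger peaks at any of the 10 genes and lay at the 99.98th percentile of the peaks in its decile of mean level. A weaker intronic peak nearer the start, with a half-site, had 8.77 and 78.2 reads (3.15). A peak in the 3′ part of the gene, in an untranslated region, had 29.5 and 94.0 reads (1.67). The promoters stayed below the threshold. The upstream start had 487 reads with GFP and 345 with Prox1 (-0.50), and the internal start 519 and 577 reads (0.15).

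Ppara encodes PPARα, the fatty acid receptor that drives β-oxidation in the liver. It had 10 peaks (ENSMUSG00000022383.13, chr15:85734983-85802819, plus strand), 3 higher and 0 lower, with a median of 0.08. The 3 higher peaks sat together in 1.90 kb of intron (chr15:85785044-85786941), the middle one 51165 bases from the 5′ end of the gene. Their reads went from 15.1 to 56.1 (1.89), from 18.6 to 88.7 (2.25) and from 29.5 to 65.7 (1.16). All 3 were below the median level, and 1 of them held an AP-1 site. The promoter peak, in contrast, had 565 reads with GFP and 646 with Prox1 (0.19). At or above the median level the differences ran only from -0.15, at the promoter of Cdpf1 (609 and 548 reads), to 0.32, at that of Pkdrej (237 and 295 reads).

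Rxra, which encodes the common partner RXRα, was the most densely covered of the 10 genes, with 19.8 peaks per 100 kb. Of its 27 peaks, 4 were lower and 1 higher, and the median was -0.43, close to that of all peaks (ENSMUSG00000015846.14, chr2:27676440-27762957, plus strand). The lowest difference was upstream of the gene, at chr2:27653611-27653811, where 248 reads with GFP stood against 80.4 with Prox1 (-1.62). That peak holds an AP-1 site. The other lower peaks were a pair of intronic ones, with 383 and 162 reads (-1.25) and 228 and 98.9 reads (-1.21), and 1 beyond the 3′ end with 372 and 133 reads (-1.49). At or above the median level the highest difference was -0.02, at a peak beyond the 3′ end with 250.1 and 246 reads. The only higher peak, 37.2 and 93.6 reads (1.33), lay further upstream. The main promoter peak had 638 and 530 reads (-0.27), and the promoter peaks of an internal start had 89.5 and 85.9 reads (-0.06) and 123 and 91.7 reads (-0.43).

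**Figure D4:**
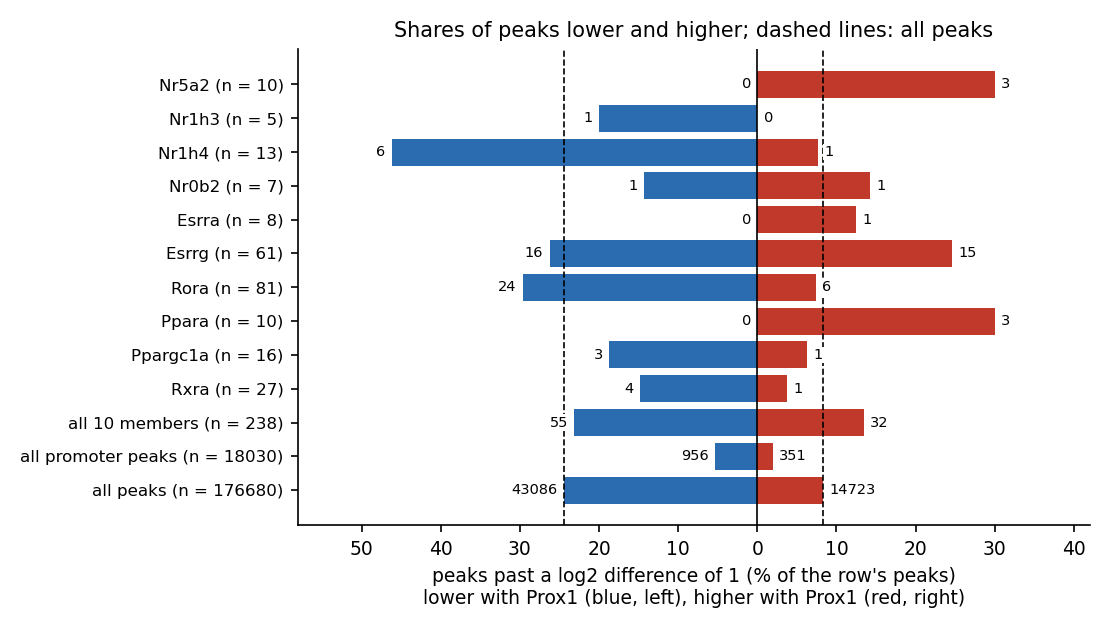
Share of peaks past a log2 difference of 1 (x axis, % of the peaks of each row), lower with Prox1 to the left in blue and higher to the right in red, with the number of peaks beside each bar. Dashed lines are the shares of all peaks, 24.4% lower and 8.33% higher. Nr1h4 (6 of 13) has the largest lower share, and Nr5a2 and Ppara (3 of 10 each) the largest higher shares.

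Where 0 was placed mattered for these counts. After the median of all peaks was subtracted from every difference, 19 of the 238 peaks were lower and 38 higher, beside 8.64% lower and 13.4% higher of all peaks. Rora then had 7 lower and 8 higher peaks, Nr1h4 2 and 2, and Esrrg 5 and 16. Nr5a2 had 4 higher peaks and Ppara 3. Nr1h3 kept its 1 lower peak of 5, a larger share than the 2 of 13 at Nr1h4. Nr1h4 thus had the largest share of lower peaks only without centring. The centring raises every difference, so it could add no lower peak. Of the most accessible promoter peaks, those of Nr5a2, Esrra and Rxra turned from a negative to a positive difference under this centring, while those of Nr1h4, Nr1h3, Ppargc1a, Esrrg, Rora and Ppara kept their sign. The Nr1h4 promoter, at -0.66 after centring, was then no longer past the threshold.

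The same counts were made for lists of related genes, each over the gene body and 25 kb. A list of 39 other nuclear receptors of the mouse had 548 peaks, 20.1% lower and 6.57% higher, with a median of -0.34. Of them, 35 had a promoter peak, with a median difference of -0.21. The lowest was that of Nr1i2, encoding the xenobiotic receptor PXR, at 303 reads with GFP and 140 with Prox1 (-1.11), and the highest that of Nr0b1, encoding DAX-1, at 32.8 and 44.1 reads (0.43). For 12 coregulators the shares were 22.9% lower and 8.9% higher of 236 peaks, and the median promoter difference was -0.30, with the highest, 0.21, at Tbl1xr1. For 26 target genes of these receptors the shares were 17.0% and 6.72% of 253 peaks. There, 21 promoters had a peak, with a median of -0.15, from -0.66 at the bile acid enzyme gene Cyp27a1 to 0.29 at Fgfr4, the receptor for intestinal FGF signals. Among the 9 promoters of the 10 genes the median was -0.26 and the range -1.07 to 0.25, beside a median of -0.20 for all promoter peaks. No test of the differences between the lists was made.

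**Figure D5:**
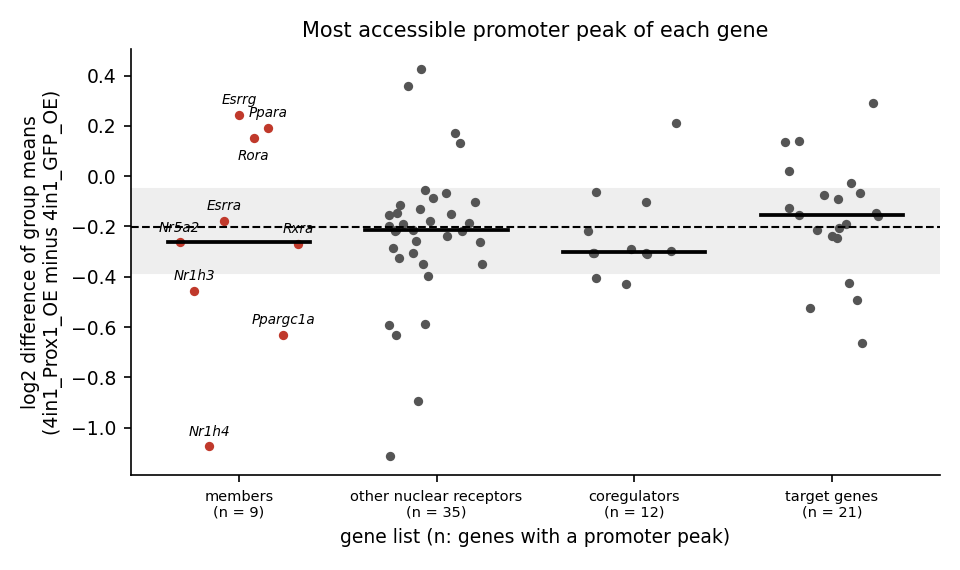
Log2 difference of the group means (y axis) at the most accessible promoter peak of each gene, for the 10 genes (red, named; 9 have such a peak) and 3 lists of related genes (x axis). Bars are medians of each list, and the dashed line and band are the median and quartiles of all promoter peaks. Nr1h4 (-1.07) lies lowest among the named genes, and Esrrg (0.25), Ppara (0.19) and Rora (0.15) lie above 0.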

How the data were processed

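ATAC-seq was performed on 12 libraries in 4 groups, and the deposited table compares 4in1_GFP_OE with 4in1_Prox1_OE (3 libraries each). The authors aligned trimmed reads to mm10, per the methods. The submitters' processing notes name Trimmomatic 0.38, Bowtie2 2.3.4.3, SAMtools 1.10, Picard 2.18.16, bedtools 2.27.1, MACS2 2.1.2 and DiffBind 3.4.11, whereas the reporting summary names Genrich as the peak caller. DiffBind counts reads in windows around consensus peaks and scales them. For DiffBind the methods refer to its vignette and name no normalization of their own, and whether peaks were called per library is not given in the sources used here. The values used are log2 mean normalized reads, over both groups and within each, as the authors deposited them. The table also holds the authors' fold change, p-value and FDR, and a pair of lists gives the peaks they called. These were not used. Pooled means carry no replicate spread or depth, so no test was run.

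Differences were computed as log2 Prox1 minus log2 GFP without a pseudocount. Start sites, genes and exons came from GENCODE M21, and sequence from GRCm38.p6. A peak in an exon but outside coding sequence was called untranslated region. Every promoter peak was described, as were the peaks of lowest and highest difference among those at or above the median level of all peaks. Peaks named beyond this, and the choice of those printed, were chosen after their values were seen. The 10 genes and the gene lists were chosen with earlier results of these data known. The counting steps were tested on simulated data. Figures were drawn with matplotlib 3.10.9, and all values were computed in Python 3.11.15 with pandas 2.3.3, numpy 2.4.6 and scipy 1.17.1. Pooled values of the coregulator list cover all 12 genes, and only the highest promoter difference among them is given singly.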

Additional observations from a re-analysis of the deposited data

How the results depend on the processing

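No paired analysis was possible because group means alone, and no value per library, were used here. Hence the replicate block and the leaving out of each replicate were not run. A share was taken as moved when it left the 95% Wilson interval of its main value, and the median when it left its binomial interval, although neighbouring peaks are not independent. The share of lower peaks at the 10 genes was 23.1%. It moved to 7.98% both after centring on the median of all peaks and after scaling to equal totals (all peaks 8.64% and 8.8%). It was 16% with a pseudocount of 10 reads, 41.6% at a 1.5-fold and 0.84% at a 4-fold threshold (all peaks 19.7%, 42.4% and 0.367%). The share of higher peaks (13.4%) moved to 4.65% without the weakest 25% of peaks (all peaks 4.14%), to 4.62% at 4-fold (2.22%) and to 9.6% without Esrrg (8.33%), an alternative added after seeing the data, which left the share of lower peaks and the median within their intervals. The median difference (-0.43) moved to -0.0083 after centring and to -0.013 after equal totals. Gene bodies alone, 100 kb flanks, leaving out promoters of other genes and leaving out Rora kept all 3 values within their intervals. Basic start sites, an alternative chosen after seeing the data, left the most accessible promoter peak of each gene as it was.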
